A study of Mus musculus with 19 samples.

Results

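The cells of the developing mouse kidney that remain after SIX2-positive nephron progenitors are sorted away were measured in 2 ways at E16.5 (embryonic day), and these negative fractions are compared here. SIX2- cells were nephrogenic zone cells, from the outer rim of the kidney, that had been stained for the SIX2 protein and sorted as negative. Their libraries are titled MARIS, which stands for a way of sequencing RNA from cells that were gated on a protein inside the cell, and no allele is given for them. GFP- cells were the cells without GFP from whole developing kidneys that carry Six2TGC/+, an allele that places GFP under the control of Six2. Both groups were of the CFW strain, with 3 libraries each, so 6 of the 19 libraries of the series are compared, chosen by their titles. The starting tissue, the sorting method and the allele differ together, and their parts cannot be told apart. Whether the 3 libraries of a group stem from different animals or litters is not stated, so the p-values speak of the spread among these libraries alone, part of which may be technical. The matching positive fractions, SIX2+ cells from the nephrogenic zone and GFP+ cells from Six2TGC/+ kidneys (3 libraries each, same strain and stage), are given beside them where they bear on a result. So are 3 libraries of unsorted nephrogenic zone cells (NZC), which are also titled MARIS.

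Nephrons form in the rim of the growing kidney, where SIX2-expressing cap mesenchyme cells surround the tips of the branching ureteric bud. Cells that leave this pool express Wnt4 and Pax8, turn from mesenchyme into epithelium, and pass through the renal vesicle and the S-shaped body. Deeper parts of the organ hold older nephrons, collecting ducts, medullary stroma and larger vessels. A negative fraction therefore mixes stroma, ureteric epithelium, differentiating nephrons, endothelium and blood cells, and its makeup depends on the tissue that was dissociated.

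Values are RPKM, read numbers divided by gene length and by library depth. Of the 20162 gene names in the table, 12161 reached 1 in at least 3 of the 6 libraries and were tested. Differences are SIX2- minus GFP- on the log2(RPKM + 1) scale, which understates changes of low genes. A gene was called at an adjusted p under 0.05 from limma's moderated test with Benjamini-Hochberg adjustment over all genes tested, and every adjusted p below is of that kind. Of the genes tested, 1791 were called higher in SIX2- cells, which is 14.7%, and 1046 were called lower, which is 8.60%, so 23.3% of genes were called in either direction. The direction of this split depended on scaling. The median gene stood at 0.10 as deposited, and after rescaling to TPM, equal column sums, it stood at -0.08 with 592 genes higher and 1498 lower. With the replicate number as a block, a pairing inferred from these data, the counts were 3563 higher and 1942 lower of 12161. List counts with the block given below are to be read beside these, not beside 14.7% and 8.60%. Single libraries also carried weight, because 118 genes in all were called without SIX2- library 2, 182 without GFP- library 1, 681 without GFP- library 2 and 1489 without SIX2- library 1, against 2837 with all 6 libraries.

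The libraries resembled each other more within a group than between the groups. Pearson's r of log2 values over the tested genes ran between 0.967 and 0.988 among SIX2- libraries, between 0.967 and 0.989 among GFP- libraries, and between 0.930 and 0.964 across the groups. Estimated depth was 26.9, 42.7 and 40.7 M reads in SIX2- libraries 1 to 3, and 35.5, 44.7 and 25.7 M in GFP- libraries 1 to 3.

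The gene on which both sorts rest was examined as a check. Six2 (chromosome 17, 85684277 to 85688274, minus strand, build GRCm38) had 4.43, 7.59 and 46.8 RPKM in SIX2- libraries 1 to 3, against 2.70, 2.88 and 16.8 RPKM in GFP- libraries 1 to 3. Library 3 was the highest in each group, and the groups overlapped. The difference of 1.04 ± 0.88 (SE) did not pass the test, with adjusted p = 0.412. With the replicate number as a block the adjusted p was 0.00299, and over all alternatives it ran from 0.00299 to 0.919. Six2 stood between 295 and 458 RPKM in SIX2+ libraries and between 312 and 348 RPKM in GFP+ libraries, so each negative library held a small part of the level of its positive counterpart. Foxd1, a transcription factor of the cortical stroma that borders the cap mesenchyme, had 63.9, 51.4 and 103 RPKM in SIX2- libraries, against 70.4, 62.5 and 103 RPKM in GFP- libraries (difference -0.14 ± 0.27 SE, adjusted p = 0.736).

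Genes of nephrons that have begun to differentiate were higher in SIX2- cells. Of 21 genes listed for this stage, 20 were tested, 17 were called higher and none lower, beside 14.7% of all genes called higher. Their median difference was 1.37, against 0.10 for all genes tested. The 3 SIX2- libraries lay above the 3 GFP- libraries for 17 of the 20, an ordering that 28.1% of all tested genes showed. In bulk samples, fewer cells of a type and less RNA per cell cannot be told apart.

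Wnt4 (chromosome 4, 137277489 to 137299726, plus strand), the signal that drives progenitors to become epithelium, had 28.6, 53.9 and 40.3 RPKM in SIX2- libraries, against 12.4, 13.8 and 8.45 RPKM in GFP- libraries. The groups did not overlap, and the mean was 3.54 times that of GFP- cells. The difference was 1.72 ± 0.25 (SE), with adjusted p = 0.0113. Pax8 (chromosome 2, 24420560 to 24475599, minus strand), a transcription factor of early nephron epithelium, had 35.4, 65.6 and 49.5 RPKM in SIX2- libraries, against 12, 15.2 and 13.1 RPKM in GFP- libraries. The difference was 1.79 ± 0.21 (SE), with adjusted p = 0.00758. Wnt4 and Pax8 kept their calls under every alternative tried, with adjusted p of at most 0.0497 and 0.0475. Clu, which encodes the secreted chaperone clusterin made by developing tubules, had 73.0, 133 and 58.4 RPKM in SIX2- libraries, against 18.8, 31.3 and 20.7 RPKM in GFP- libraries. Its difference of 1.80 ± 0.31 (SE) had adjusted p = 0.0129, and 0.0556 without GFP- library 1, in a range over the alternatives from 0.000183 to 0.0556. The low end came from the fit with library weights, whose estimate did not converge fully. Some other low ends given below, such as those of Tfap2b and Cldn5, came from the same fit. Where a low end equals the blocked value, as for Cited1, Stmn2, Jund and Rn45s, it came from the fit with the replicate block.

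**Figure D1:**
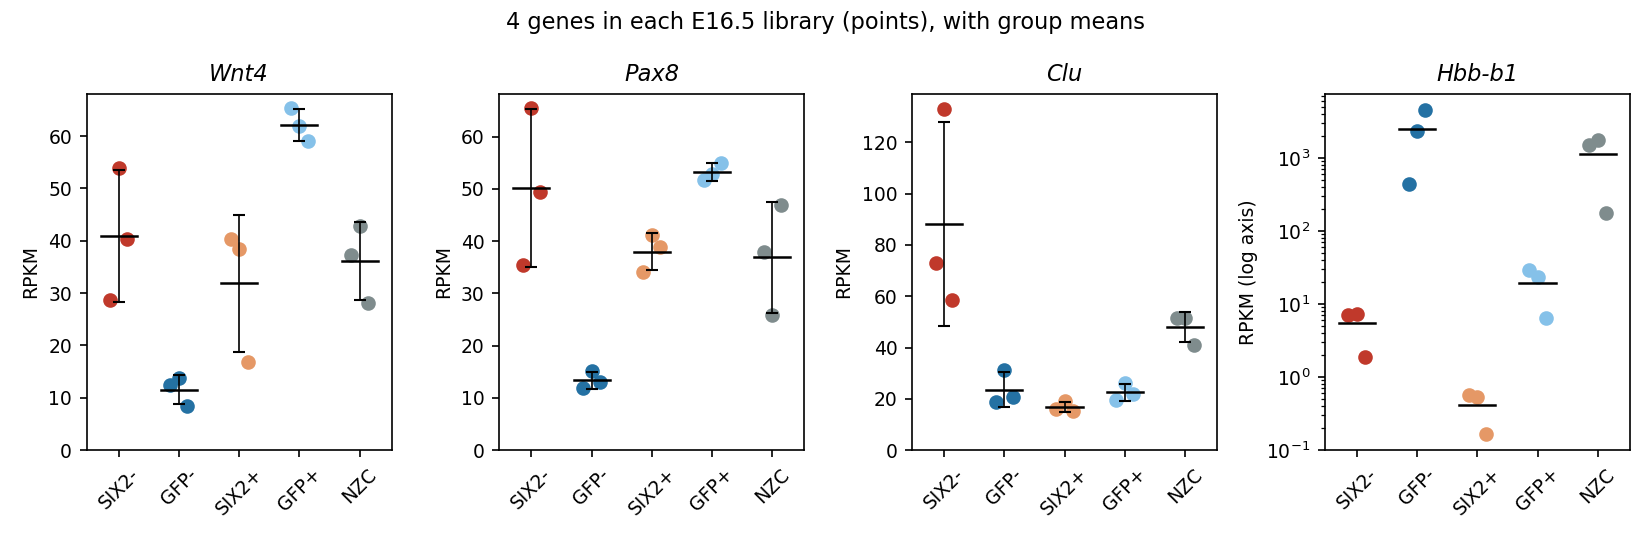
RPKM of Wnt4, Pax8, Clu and Hbb-b1 in each E16.5 library, with SIX2- beside GFP-, SIX2+ beside GFP+, and unsorted nephrogenic zone cells (NZC). Points are libraries (n = 3 per group), horizontal lines are means, and bars are SD except for Hbb-b1, which is on a log axis. Wnt4, Pax8 and Clu are higher in SIX2- than in GFP- libraries, and Hbb-b1 lies far lower in SIX2- than in GFP- libraries.

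Several of these genes act in the first patterning of the nephron. Fgf8, a growth factor needed for nephron formation, had 3.87, 9.10 and 7.71 RPKM in SIX2- libraries, against 0.252, 1.12 and 1.94 RPKM in GFP- libraries (difference 1.93 ± 0.37 SE, adjusted p = 0.0158). Every SIX2- library was above every GFP- library. Pou3f3, a POU factor of the future loop of Henle, had 9.26, 11.6 and 8.64 RPKM in SIX2- libraries, against 1.04, 2.10 and 2.89 RPKM in GFP- libraries (difference 1.89 ± 0.24 SE, adjusted p = 0.00871). Pou3f3 stayed called without any 1 library, and Fgf8 lost its call without SIX2- library 2 or GFP- library 1. Notch pathway genes were among those called, with differences of 1.67 for the ligand Dll1, 0.99 for the ligand Jag1 and 1.54 for the target Hes5. So were Irx3 and Irx1, homeobox factors of the middle nephron segments, at 1.70 and 1.53, and the Wnt antagonists Sfrp2 and Dkk1, at 1.0 and 0.95. The 3 members that were tested and did not pass were Cdh6 at 0.52, Cxcr4 at 0.47 and Mecom at -0.21. With the replicate number as a block 19 of the 20 were higher, including Cdh6 (adjusted p = 0.0157, in a range over the alternatives from 0.00662 to 0.585) and Cxcr4 (adjusted p = 0.0388, in a range from 0.00353 to 0.859). The list held 17 calls with all libraries, and it held 6 without SIX2- library 2, 5 without GFP- library 1 and 10 without GFP- library 2. After a trend with gene length, described with the length data, was removed, 11 genes of the list were called higher.

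**Figure D2:**
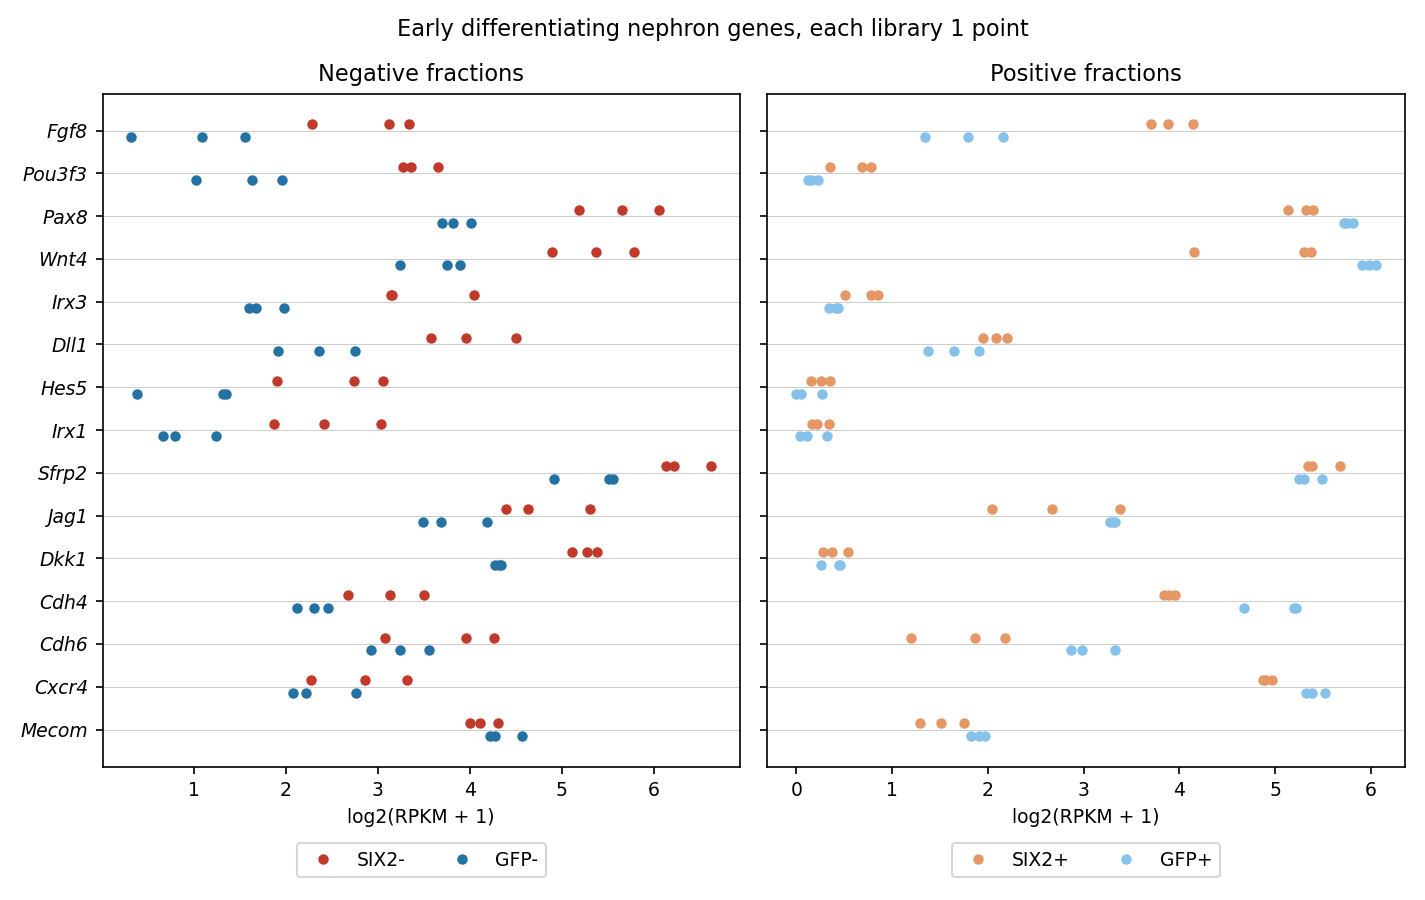
Levels on the log2(RPKM + 1) scale of 15 of the 20 tested early differentiating nephron genes, those named in the text, with the negative fractions on the left and the positive fractions on the right. Each point is 1 library, and genes are ordered by the difference between SIX2- and GFP-. In the negative fractions most SIX2- libraries lie to the right of the GFP- libraries, whereas in the positive fractions Wnt4, Pax8, Cdh4 and Cdh6 lie lower in SIX2+ than in GFP+ libraries.

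The positive fractions held fewer calls on this list. Of these 20 genes, 1 was called higher and 2 lower in SIX2+ against GFP+ cells, where 2.84% and 4.65% of all genes were called, and the median difference was 0.05. Wnt4 had 40.4, 38.4 and 16.9 RPKM in SIX2+ libraries, against 65.3, 62.0 and 59.1 RPKM in GFP+ libraries (difference -1.04, adjusted p = 0.0587). Pax8 had 34.0, 41.1 and 38.9 RPKM in SIX2+ libraries, against 51.7, 52.8 and 55.1 RPKM in GFP+ libraries (difference -0.48, adjusted p = 0.129). A test of the difference of the differences, SIX2- minus GFP- less SIX2+ minus GFP+, was made in a fit of the 12 sorted libraries, in which the negative and positive comparisons share no library. It gave 2.76 ± 0.43 (SE) for Wnt4 (adjusted p = 0.0150), 2.27 ± 0.25 for Pax8 (adjusted p = 0.00294) and 2.20 ± 0.37 for Clu (adjusted p = 0.0227). Cdh4, a cadherin of early nephron cells, at 1.94 (adjusted p = 0.0131), Pou3f3 at 1.45 (adjusted p = 0.0461) and Dkk1 at 0.94 (adjusted p = 0.0243) also passed. Pou3f3 and Dkk1 were below 1 RPKM in the positive fractions, where the pseudocount compresses a fold. Pou3f3 averaged 0.532 RPKM in SIX2+ cells and 0.124 RPKM in GFP+ cells. With a pseudocount of 0.1 the difference of differences of Pou3f3 was 0.90 (adjusted p = 0.721) and that of Dkk1 0.94 (adjusted p = 0.298), neither of which passed, while Wnt4, Pax8, Clu and Cdh4 did. Of the 20 genes, 5 passed this test as higher and none as lower, beside 0.428% and 0.411% of all genes. Fgf8 differed in the same direction in both comparisons, at 1.93 in the negative and 2.15 in the positive fractions, and its difference of differences was -0.22 (adjusted p = 0.952).

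Other genes were among the 12 with the largest positive difference. Wfdc2, a secreted protein with whey acidic protein domains made by many epithelia, had 33.5, 51.5 and 43.6 RPKM in SIX2- libraries, against 3.37, 6.92 and 12.3 RPKM in GFP- libraries (difference 2.48 ± 0.37 SE, adjusted p = 0.0117). Cldn6, a tight junction claudin of embryonic epithelia, had 36.8, 41.4 and 23.9 RPKM in SIX2- libraries, against 5.93, 7.31 and 12.8 RPKM in GFP- libraries (difference 1.89, adjusted p = 0.0119). Spint2, an inhibitor of epithelial serine proteases, differed by 1.91 (adjusted p = 0.00772). None of these 3 genes showed overlap between the groups. Lhx1os, a long noncoding RNA named for its place beside Lhx1, had 9.88, 18.4 and 9.75 RPKM in SIX2- libraries, against 1.33, 2.38 and 1.65 RPKM in GFP- libraries (difference 2.26 ± 0.26 SE, adjusted p = 0.00681). Emx2, a homeobox factor needed for urogenital development, had 21.9, 29.5 and 13.6 RPKM in SIX2- libraries, against 4.15, 6.5 and 4.92 RPKM in GFP- libraries (difference 1.83, adjusted p = 0.0114). Exons of Emx2 overlap those of Emx2os on the other strand, and whether reads were counted by strand is not given in the sources used here. Both genes passed the test of the difference of differences, at 1.88 (adjusted p = 0.0476) for Lhx1os and 1.75 (adjusted p = 0.0448) for Emx2, but not with a pseudocount of 0.1 (adjusted p = 0.112 and 0.157). Clec18a, a lectin gene, and Hoxb8, a posterior homeobox gene, differed by 1.91 and 1.89 (adjusted p = 0.0150 and 0.0117). Lhx1os and Spint2 kept their calls without any 1 library, while Wfdc2 lost its call without SIX2- library 2, Emx2 without GFP- library 1, and Clec18a, Hoxb8 and Cldn6 without either.

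Progenitor genes themselves were divided. Of 18 listed, 16 were tested and 6 were called higher in SIX2- cells, none lower, with a median of 0.77, beside 14.7% and 8.60% of all genes. With the replicate number as a block, 10 were higher and 1 lower. Uncx, a homeobox factor of the cap mesenchyme, had 25.5, 48.9 and 76.1 RPKM in SIX2- libraries, against 4.32, 8.76 and 11.6 RPKM in GFP- libraries (difference 2.43 ± 0.43 SE, adjusted p = 0.0135). Pax2, a transcription factor of the cap mesenchyme, the early nephron and the ureteric bud, had 19.8, 35.1 and 63.2 RPKM in SIX2- libraries, against 3.79, 5.75 and 10.7 RPKM in GFP- libraries (difference 2.33 ± 0.44 SE, adjusted p = 0.0158). For both genes, as for Six2, library 3 was the highest of its group, and no SIX2- library fell to the level of a GFP- library. Rspo1, which amplifies Wnt signals, differed by 1.32 (adjusted p = 0.0150) and the homeobox gene Meox2 by 1.12 (adjusted p = 0.00997). Meox2, however, passed the minimum of 1 RPKM through SIX2- libraries alone, so that minimum fixed its direction. Wt1 and Tmem100 were the other calls, at 0.72 and 0.81. The progenitor genes Cited1 at 1.76 (adjusted p = 0.103, and 0.000580 with the block, in a range over the alternatives from 0.000580 to 0.282), Eya1 at 0.34, Crym at 0.10, Osr1 at -0.01 and Gdnf at -0.27 did not pass. The list held no call without SIX2- library 2, 1 without GFP- library 1, 2 without GFP- library 2 and 3 with the length trend removed. In the positive fractions 4 of the 16 were higher and none lower, beside 2.84% and 4.65% of all genes.

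Few genes of more mature nephron segments and the ureteric epithelium were tested, and few were called. Beside them, 14.7% of all genes were called higher and 8.60% lower, or 3563 and 1942 of 12161 with the block. All 10 tested genes of the proximal tubule, of 18 listed, had a positive difference, as had 7274 of all 12161 genes tested. The median of the 10 was 0.93, and 1 was called, against 4 with the replicate number as a block. That gene was Spp2, a secreted phosphoprotein, with 4.0, 1.81 and 1.10 RPKM in SIX2- libraries, against 0.599, 0.435 and 0.130 RPKM in GFP- libraries (difference 1.17, adjusted p = 0.0368). It passed the minimum of 1 RPKM through SIX2- libraries alone, so that minimum fixed its direction, and it was not called in any fit that left out a library except that without SIX2- library 3. Of the transporter and enzyme genes, Slc34a1 stood at 1.17 (adjusted p = 0.0776, and 0.0173 with the block, in a range from 0.00179 to 0.205) and Pdzk1 at 1.04, and Hnf4a, a factor that drives this segment, at 0.96 (adjusted p = 0.0684, and 0.0153 with the block, in a range from 0.000540 to 0.217). Of the 2 loop and distal tubule genes tested, of 10 listed, limma called none. At an unadjusted p under 0.05 and with the block, 1 was higher, Tfap2b, a transcription factor gene, at 0.82 (adjusted p = 0.0560, and 0.00965 with the block, in a range over the alternatives from 0.00124 to 0.165). Of the 4 ureteric tip genes tested, of 7 listed, limma called none, 0 had an unadjusted p under 0.05, and 2 were higher with the block. The receptor gene Ret had a difference of 0.21. Of 4 genes tested for the ureteric trunk and collecting duct, of 12 listed, 1 was called higher, Hoxb7 (difference 1.13, adjusted p = 0.0120), and with the block 2 were. Its call was lost without SIX2- library 2 or GFP- library 1. Hoxb7 is not limited to the ureteric epithelium here, since it had 34.8, 28.8 and 36.3 RPKM in SIX2+ libraries, against 19.2, 18.7 and 16.1 RPKM in GFP+ libraries.

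Podocyte genes gave no higher call. Of 12 tested, of 14 listed, 1 was called lower, near the 8.60% of all genes, and none higher, beside 14.7%. With the block 2 were lower, beside 1942 of 12161 genes. The median of -0.08 became 0.18 without SIX2- library 3, 0.21 without GFP- library 1 and -0.41 without GFP- library 3. The slit diaphragm gene Nphs1 differed by 0.01 and did not pass. Kirrel, also a slit diaphragm gene, was the call, with 21.8, 19.3 and 23.8 RPKM in SIX2- libraries, against 40.3, 33.6 and 38 RPKM in GFP- libraries (difference -0.76 ± 0.12 SE, adjusted p = 0.0120). Kirrel was lower in the positive fractions by nearly the same amount, at -0.72 (adjusted p = 0.0109), with a difference of differences of -0.04 (adjusted p = 0.979). In the negative fractions its call was lost without SIX2- library 2 or GFP- library 1.

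Erythroid genes showed the widest gap. Of 16 listed, 7 were tested, and all 7 were called lower in SIX2- cells, with a median of -7.84, beside 8.60% of all genes called lower. Of these 7, Alas2 passed the minimum of 1 RPKM through GFP- libraries alone, and that minimum fixed its direction. Hbb-b1, an adult beta-globin, had 7.10, 7.22 and 1.86 RPKM in SIX2- libraries, against 431, 2360 and 4546 RPKM in GFP- libraries. The groups did not overlap, the mean of SIX2- cells was 453-fold lower, and the difference was -8.18 ± 0.82 (SE), with adjusted p = 0.00560. The alpha-globin Hba-a1 had 4.17, 5.44 and 1.25 RPKM in SIX2- libraries, against 241, 1477 and 2512 RPKM in GFP- libraries (difference -7.84 ± 0.82 SE, adjusted p = 0.00560). Within each group the libraries were not alike, as globin level was lowest in SIX2- library 3 and highest in GFP- library 3. Single globin genes are uncertain, because the copies are near-identical and Hbb-b2 and Hbb-bt had equal values in 15 of 15 libraries. Alas2, the enzyme that starts heme synthesis in red cell precursors, had 0.172, 0.0583 and 0.0875 RPKM in SIX2- libraries, against 5.68, 32.6 and 142 RPKM in GFP- libraries (difference -4.85 ± 0.93 SE, adjusted p = 0.0160). Its call was lost without SIX2- library 2 or GFP- library 2. Exons of Alas2 overlap those of Apex2 on the other strand.

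Globin genes made up 0.00592%, 0.00587% and 0.00157% of the summed values in SIX2- libraries, against 0.398%, 2.06% and 3.81% in GFP- libraries. Unsorted nephrogenic zone cells, from the same tissue as SIX2- cells, held 1.31%, 1.17% and 0.127%, and of these libraries the second stands apart from the others in its high level of histone and 45S ribosomal RNA genes. The positive fractions held less, with 0.000443%, 0.000592% and 0.000107% in SIX2+ libraries, against 0.0231%, 0.0167% and 0.00559% in GFP+ libraries. Thus SIX2- libraries stood below GFP- libraries and SIX2+ below GFP+, while the unsorted NZC libraries overlapped GFP- libraries and lay above GFP+ libraries. The test of the difference of differences passed for Hba-a2 at -5.19 (adjusted p = 0.0476) and for Hbb-b2 and Hbb-bt at -5.24 (adjusted p = 0.0243), while Hbb-b1 at -4.54 (adjusted p = 0.0713), Hbb-bs at -4.91 (adjusted p = 0.0538) and Hba-a1 at -4.96 (adjusted p = 0.0527) did not pass. Hba-a2, Hbb-b2 and Hbb-bt lay below 1 RPKM on average in SIX2+ cells, and with a pseudocount of 0.1 none of the 3 passed, with Hba-a2 at -3.99 (adjusted p = 0.250) and Hbb-b2 and Hbb-bt at -3.85 (adjusted p = 0.184).

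The promoters of 3 of these genes are shown because these genes were lower together. Each is the RefSeq sequence of build GRCm38.p6 from 250 bases before to 50 bases after the gene start, and capitals mark short motifs searched on both strands. These were the CCAAT box and the CACCC box, known from globin promoters, and the letters GATAA, known from binding of GATA factors. The window of Hba-a1 is chr11:32283422-32283721 (plus strand), that of Hbb-bs chr7:103827879-103828178 (minus strand) and that of Alas2 chrX:150547167-150547466 (plus strand).
Hba-a1: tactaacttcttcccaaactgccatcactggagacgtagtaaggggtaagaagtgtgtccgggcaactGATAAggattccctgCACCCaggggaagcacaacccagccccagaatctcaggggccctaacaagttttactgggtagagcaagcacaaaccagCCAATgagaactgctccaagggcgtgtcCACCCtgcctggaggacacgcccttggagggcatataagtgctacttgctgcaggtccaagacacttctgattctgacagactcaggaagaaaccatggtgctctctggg
Hbb-bs: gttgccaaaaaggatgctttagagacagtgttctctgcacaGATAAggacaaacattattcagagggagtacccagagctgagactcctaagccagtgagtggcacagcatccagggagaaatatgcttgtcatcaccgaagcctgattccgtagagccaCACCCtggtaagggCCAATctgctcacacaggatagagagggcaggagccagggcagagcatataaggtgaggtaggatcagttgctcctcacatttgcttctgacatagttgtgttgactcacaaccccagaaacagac
Alas2: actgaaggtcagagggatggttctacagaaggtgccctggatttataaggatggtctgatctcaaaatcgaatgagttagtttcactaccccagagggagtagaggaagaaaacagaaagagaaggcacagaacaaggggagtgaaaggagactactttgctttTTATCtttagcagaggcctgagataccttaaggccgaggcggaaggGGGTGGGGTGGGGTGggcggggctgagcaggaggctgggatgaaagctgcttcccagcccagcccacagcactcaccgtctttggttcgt
All 3 windows hold the GATAA letters and the CACCC box on one strand or the other, and those of Hba-a1 and Hbb-bs also hold the CCAAT box. Such letters are common: of 32851 RefSeq promoters of the same length, 25.4% hold GATAA, 57.5% the CACCC box and 37.4% the CCAAT box. The matches describe the sequence only.

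Stromal and matrix genes were lower in SIX2- cells. Of 12 cortical stroma genes, all tested, 5 were called lower and 1 higher, with a median of -0.38, beside 8.60% and 14.7% of all genes. With the block 7 were lower and 1 higher, beside 1942 and 3563 of 12161 genes. Foxd1 was called in neither fit. Fat4, a giant cadherin through which stroma signals to progenitors, had 9.995, 7.41 and 13.9 RPKM in SIX2- libraries, against 42.2, 28.6 and 38.2 RPKM in GFP- libraries (difference -1.73 ± 0.23 SE, adjusted p = 0.00911). Crabp1, a retinoic acid binding protein, went the other way, with 65.7, 65.0 and 68.6 RPKM in SIX2- libraries, against 32.5, 30.6 and 36.7 RPKM in GFP- libraries (difference 0.98 ± 0.10 SE, adjusted p = 0.00560). Neither gene showed overlap between the groups. Rarb, a retinoic acid receptor, differed by -0.75 (adjusted p = 0.0113), though exons of Rarb overlap those of Top2b on the other strand. Meis1 and Sfrp1, at -0.39 and -0.74, were also called lower and passed the test of the difference of differences, at -1.84 (adjusted p = 0.000397) and -1.23 (adjusted p = 0.0238). In the positive fractions both had positive differences, 1.45 for Meis1 and 0.49 for Sfrp1. Of the 12 genes, 2 were called lower there and 1 higher, with a median of -0.25, beside 4.65% and 2.84% of all genes. The 5 lower calls of the list became 3 without SIX2- library 1 or GFP- library 2, and 2 without SIX2- library 2 or GFP- library 1.

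Of 12 genes of medullary and peri-ureteric stroma, all tested, 3 were called lower and none higher, with a median of -0.44, beside 8.60% and 14.7% of all genes. With the block, 8 were lower and 1 higher, beside 1942 and 3563 of 12161 genes. Leaving out SIX2- library 2, GFP- library 1 or GFP- library 2 left 1 lower call. In the positive fractions 2 of the 12 were lower and none higher, and none passed the test of the difference of differences. Ptch1, the hedgehog receptor that is itself a target of that pathway, had 4.06, 3.69 and 7.74 RPKM in SIX2- libraries, against 35.4, 23.5 and 23.5 RPKM in GFP- libraries (difference -2.24 ± 0.26 SE, adjusted p = 0.00738). Ptch1 was also lower in SIX2+ than in GFP+ cells, by -1.70 (adjusted p = 0.00977), whereas Gli1, another target of the pathway, differed by -0.38 in the negative fractions and did not pass (adjusted p = 0.273, and 0.0420 with the block, in a range from 0.00595 to 0.723). Tshz3 and Tbx3, transcription factors of the mesenchyme around the ureter, differed by -1.19 and -0.88 (adjusted p = 0.0169 and 0.0400). Of the 17 interstitial matrix genes, all tested, 9 were called lower and 1 higher, with a median of -0.76, beside 8.60% and 14.7% of all genes. With the block 12 were lower and 1 higher, beside 1942 and 3563 of 12161 genes. In the positive fractions 4 of the 17 were lower and none higher, beside 4.65% and 2.84% of all genes. Their median there was -0.44, and none of the 17 passed the test of the difference of differences. Fn1, fibronectin, had 154, 97.3 and 141 RPKM in SIX2- libraries, against 397, 281 and 288 RPKM in GFP- libraries (difference -1.30 ± 0.21 SE, adjusted p = 0.0120). Col6a3 and Fbn1, a collagen VI chain and fibrillin, differed by -1.12 and -1.10 (adjusted p = 0.00971 and 0.0120). Mgp, matrix Gla protein, was the gene called higher, with 104, 195 and 115 RPKM in SIX2- libraries, against 36.3, 62.4 and 40.1 RPKM in GFP- libraries (difference 1.54 ± 0.28 SE, adjusted p = 0.0140). Matrix genes without a call included Col1a1 at -0.73 (adjusted p = 0.0622, and 0.0222 with the block, in a range from 0.000422 to 0.198), Dcn at -0.59 and Eln at -0.05. Fat4, Ptch1 and Col6a3 kept their calls without any 1 library. The matrix list held 2 lower calls without SIX2- library 2, 2 without GFP- library 1 and 4 without GFP- library 2, and Mgp was not called without SIX2- library 2 or GFP- library 1. These are long genes: the median exonic length was 8098 bases for the matrix list and 5771 for cortical stroma, against 4502 for all genes tested, and of the longest genes in 5 groups by length 26.4% were called lower. After the trend with length was removed, an alternative added after the data were seen, 6 matrix genes were lower and 1 higher, and 4 cortical stroma genes were lower and none higher, as Crabp1 and 1 lower gene lost their calls.

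**Figure D3:**
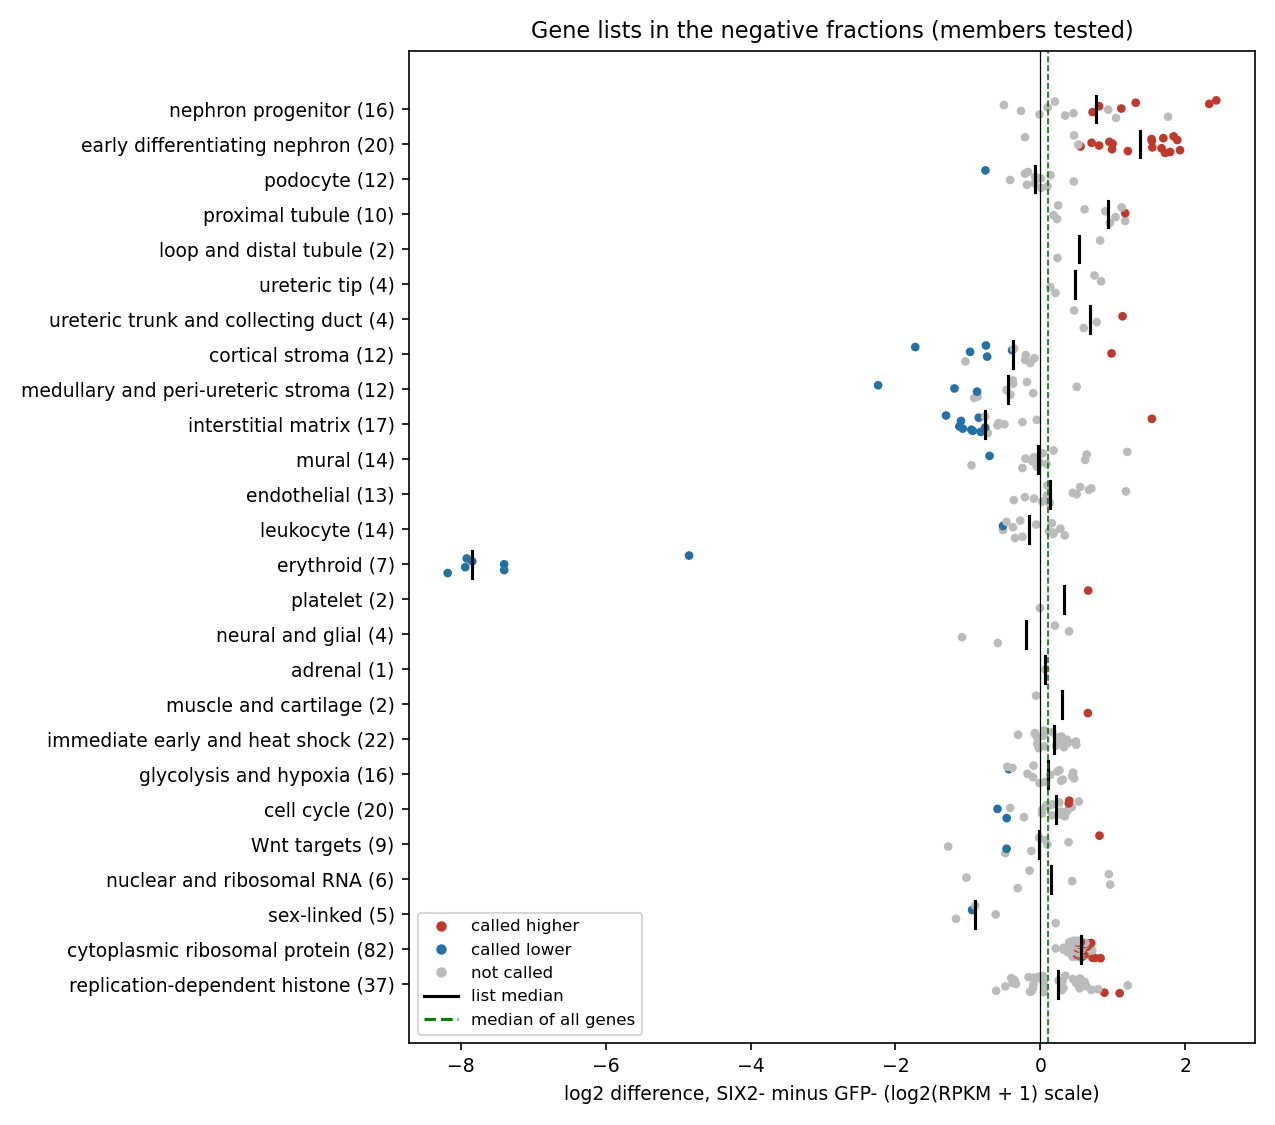
Log2 differences, SIX2- minus GFP-, of the tested members of each gene list, with the number tested in brackets. Points are genes, red where called higher, blue where called lower and grey where not called. Black bars are list medians, and the dashed line is the median of all genes at 0.10. The early differentiating nephron list has its median at 1.37, the interstitial matrix list at -0.76 and the erythroid list at -7.84.

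The size of the difference went with gene length. Exonic length was known for 11773 of the tested genes (96.8%), from the GENCODE M21 annotation of GRCm38. In 5 groups of nearly equal size from the shortest to the longest genes, the median difference was 0.39, 0.22, 0.09, -0.03 and -0.24. Of the shortest group, 34.7% were called higher and 0.849% lower, and of the longest group, 2.89% were called higher and 26.4% lower. The median length was 2631 bases for genes called higher and 8589 bases for genes called lower. Across genes, which are not independent replicates, the difference correlated with log length at r = -0.461 (11773 genes). The same slope appeared between SIX2+ and GFP+ libraries, with medians of 0.23, 0.14, 0.04, -0.03 and -0.19 over the 5 groups and r = -0.420. With the length trend removed, 384 genes were called higher and 471 lower. RNA quality was not measured in the files, and its part in this trend was not tested.

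**Figure D4:**
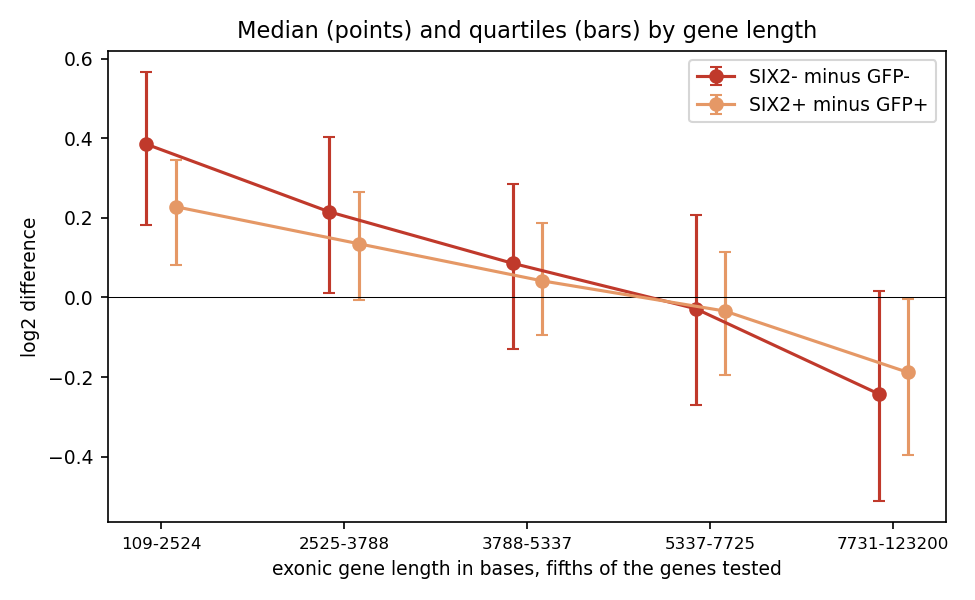
Median log2 difference (points) and quartiles (bars) in 5 nearly equal groups of the tested genes by exonic length, for SIX2- minus GFP- and for SIX2+ minus GFP+. The median falls across the groups, to -0.24 in the longest genes of the negative comparison and to -0.19 in that of the positive comparison.

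Several of the genes that were lowest in SIX2- cells outside the erythroid group were also low in SIX2+ cells. Zbed6 (chromosome 1), a transcription factor gene that arose from a DNA transposon, had 0.672, 1.08 and 2.38 RPKM in SIX2- libraries, against 23.2, 18.8 and 12.8 RPKM in GFP- libraries (difference -3.04 ± 0.30 SE, adjusted p = 0.00560). It had 0.642, 1.23 and 1.46 RPKM in SIX2+ libraries, against 20.8, 10.8 and 20.8 RPKM in GFP+ libraries, so all 6 SIX2- and SIX2+ libraries were below all 6 GFP-sorted libraries. In unsorted NZC libraries, also titled MARIS, it had 14.6, 29.1 and 15.4 RPKM, which overlaps the GFP-sorted libraries. Its difference of differences was 0.05 (adjusted p = 0.990), and its exons overlap those of Zc3h11a on the same strand, so its level is uncertain. Peg3, an imprinted zinc finger gene, had 18.3, 19.7 and 35.3 RPKM in SIX2- libraries, against 131, 115 and 124 RPKM in GFP- libraries (difference -2.35 ± 0.23 SE, adjusted p = 0.00560), and -1.98 in the positive fractions. Mib1, a ubiquitin ligase that activates Notch ligands, had 1.81, 2.52 and 4.48 RPKM in SIX2- libraries, against 19.0, 18.1 and 16.2 RPKM in GFP- libraries (difference -2.31 ± 0.23 SE, adjusted p = 0.00560), and -2.40 in the positive fractions. Tgoln2, a trans-Golgi protein gene with a near-identical paralogue, stood at or near 0 in SIX2- libraries 1 and 2 and at 1.03 RPKM in library 3, against 7.25, 3.83 and 5.08 RPKM in GFP- libraries. Unsorted NZC libraries had 74.5, 121 and 74.2 RPKM of Peg3, 13.6, 35.1 and 21.6 RPKM of Mib1, and 5.08, 2.17 and 6.31 RPKM of Tgoln2. For all 4 genes the unsorted libraries lay above every SIX2- and SIX2+ library. The differences of differences of Peg3, Mib1 and Tgoln2, at -0.37, 0.09 and 0.29, did not pass (adjusted p = 0.894, 0.977 and 0.947).

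Cytoplasmic ribosomal protein genes, which are short, were shifted the other way. All 82 tested of 85 had a positive difference, as had 7274 of all 12161 genes tested. The median of the 82 was 0.56, and 34 were called higher, beside 14.7% of all genes. With the block 75 were, beside 3563 of 12161 genes. The median stayed positive under every scaling tried, with 78 positive after quantile normalisation and 81 after rescaling without globins. Rpl38 had 792, 886 and 635 RPKM in SIX2- libraries, against 329, 514 and 468 RPKM in GFP- libraries (difference 0.83 ± 0.20 SE, adjusted p = 0.0289), and Rps26 differed by 0.73 (adjusted p = 0.0496). Exons of Rps28 and Rpl35, at 0.75 and 0.72, overlap other genes on the opposite strand. The median length of the ribosomal protein genes was 1775.5 bases. In the shortest of the 5 groups by length, the median difference was 0.39 and the lower quartile 0.18. After the length trend was removed none was called, after rescaling to TPM 8 were and after median-of-ratios scaling 7 were. None was called without SIX2- library 1, SIX2- library 2 or GFP- library 1, and 2 were without GFP- library 2. In the positive fractions limma called none of the 82, and their median was 0.29.

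Calls in the negative fractions were partly shared with the positive fractions. Of the 1791 genes higher in SIX2- cells, 160 (8.93%) were also higher in SIX2+ cells, which is 46.4% of the 345 called there. Of the 1046 lower in SIX2- cells, 387 (37.0%) were also lower in SIX2+ cells, which is 68.4% of the 566 called there. Opposite calls were rare, with 4 genes higher in the negative and lower in the positive comparison and 9 the other way round. Across the 12161 genes the 2 differences correlated at r = 0.656, as a description, with gene length shared between them. The difference of differences passed for 52 genes as higher and 50 as lower, and for 216 and 154 with the replicate number as a block.

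**Figure D5:**
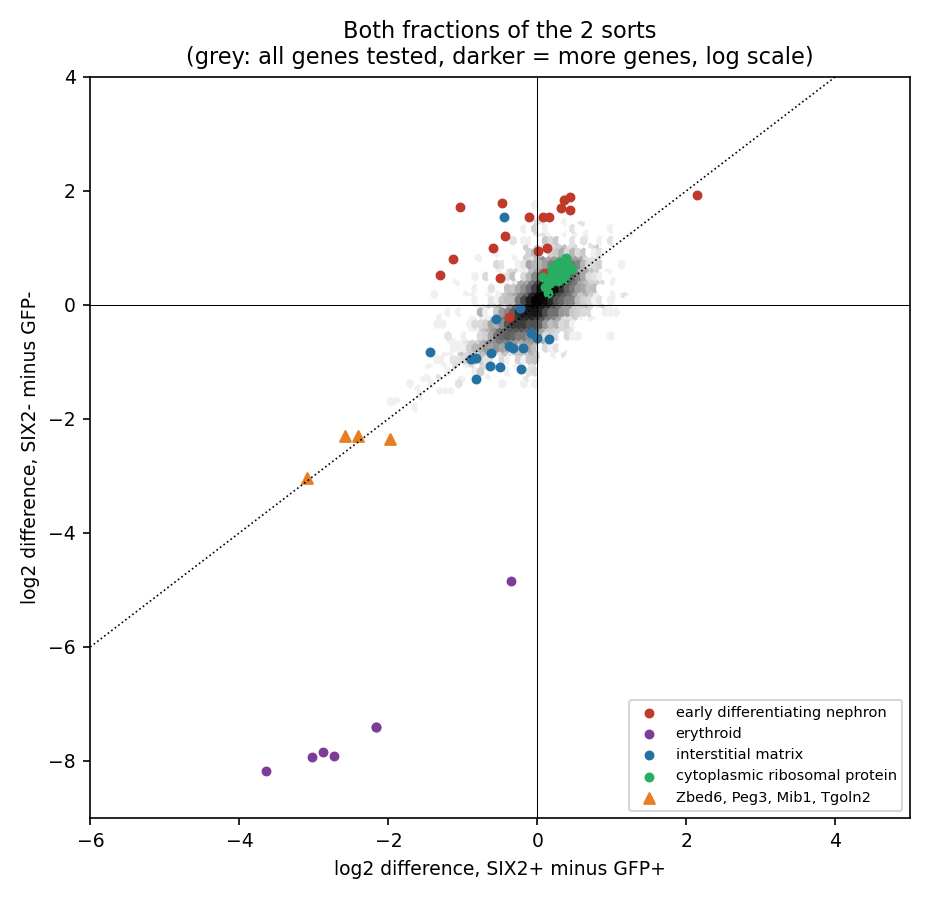
Log2 difference of each tested gene between the negative fractions (vertical axis, SIX2- minus GFP-) and the positive fractions (horizontal axis, SIX2+ minus GFP+), with equal differences on the dotted line. Grey shading counts all genes on a log scale. Early differentiating nephron genes lie mostly above the line, erythroid genes below it, and Zbed6, Peg3, Mib1 and Tgoln2 close to it, at -2.30 to -3.04 in the negative fractions.

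Endothelial, mural, leukocyte and platelet lists held few calls, and the shares lower in the mural and leukocyte lists were near that of all genes. Of all genes 14.7% were called higher and 8.60% lower, or 3563 and 1942 of 12161 with the block. Of 13 endothelial genes tested, of 15 listed, limma called none, 1 had an unadjusted p under 0.05 and 6 were higher with the block, and the median was 0.13. Cldn5, the endothelial claudin, had 32.1, 63.0 and 14.1 RPKM in SIX2- libraries, against 18.9, 16.3 and 7.01 RPKM in GFP- libraries (difference 1.18, adjusted p = 0.141, and 0.00385 with the block, in a range over the alternatives from 0.00144 to 0.382). The groups overlapped, and library 3 was the lowest in each. Of 14 mural genes, 1 was called lower, Notch3 at -0.70 (adjusted p = 0.0238), and with the block 3 were higher and 2 lower. Of 14 leukocyte genes, 1 was called lower, the macrophage mannose receptor Mrc1 at -0.52 (adjusted p = 0.0369), and with the block 4 were lower and 2 higher. Of 2 platelet genes tested, of 5 listed, 1 was called higher, the glycoprotein gene Gp1bb at 0.66 (adjusted p = 0.0219), and the chemokine gene Pf4 differed by -0.01. Gp1bb passed the minimum of 1 RPKM through SIX2- libraries alone, so that minimum fixed its direction. Of cells from outside the kidney, limma called none of 4 neural and glial genes (1 with an unadjusted p under 0.05, higher, and 1 lower with the block), with the neuronal Stmn2 at -1.08 (adjusted p = 0.278, and 0.00424 with the block, in a range from 0.00424 to 0.688). The 1 adrenal gene tested, Mc2r, differed by 0.06 (adjusted p = 0.866, and 0.761 with the block, in a range over the alternatives from 0.115 to 0.998). Of 2 muscle and cartilage genes tested, 1 was called higher, Tnnt3 at 0.65 (adjusted p = 0.0449). Notch3, Mrc1, Gp1bb and Tnnt3 each lost the call without SIX2- library 2 and without GFP- library 1. The small medians of the endothelial and adrenal lists turned negative after rescaling to TPM, at -0.04 and -0.11.

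Genes that respond to handling and growth state gave few calls as well. Counts with the block stand beside 3563 of 12161 genes higher and 1942 lower in that fit. Of 22 immediate early and heat shock genes, limma called none and 0 had an unadjusted p under 0.05, with a median of 0.19, and with the block 5 were higher and 1 lower. That median was -0.19 without SIX2- library 3 and 0.41 without SIX2- library 2. Jund had the largest difference of these, at 0.50 (adjusted p = 0.309, and 0.00377 with the block, in a range from 0.00377 to 0.866), and Fos had a difference of -0.02. Of 16 glycolysis and hypoxia genes tested, 1 was lower, the collagen hydroxylase gene P4ha1 at -0.44 (adjusted p = 0.0314), and with the block 6 were higher and 3 lower. Of 20 cell cycle genes, 2 were higher, Tyms and Pcna of DNA synthesis at 0.40 and 0.39, and 2 were lower, Cenpe and Mki67 of mitosis at -0.59 and -0.47, shares near those of all genes (14.7% and 8.60%), and with the block 10 were higher and 3 lower. Tyms and Pcna were not called after rescaling to TPM, and Tyms, Pcna and Mki67 were not with the length trend removed. Of 9 Wnt target genes tested, the receptor gene Lgr5 was higher, at 0.82 (adjusted p = 0.0174), and the feedback inhibitor gene Nkd1 lower, at -0.47 (adjusted p = 0.0418), and with the block 3 were lower. Lgr5 had 1.72, 2.37 and 1.53 RPKM in SIX2- libraries, against 0.518, 0.606 and 0.745 RPKM in GFP- libraries, and passed the test of the difference of differences at 0.92 (adjusted p = 0.0483), but not with a pseudocount of 0.1 (adjusted p = 0.0647). It too passed the minimum through SIX2- libraries alone, as did Gp1bb, so that minimum fixed the direction of both. Of 6 nuclear and ribosomal RNA genes tested, limma called none, 1 had an unadjusted p under 0.05, and with the block 2 were higher and 2 lower. The ribosomal RNA gene Rn45s stood at -1.02 (adjusted p = 0.336, and 0.0242 with the block, in a range from 0.0242 to 0.838). Of 5 sex-linked genes, Kdm5d was called lower, at -0.94 (adjusted p = 0.0483), and with the block 3 were. Of 37 replication-dependent histone genes tested, 2 were called higher, a smaller share than the 14.7% of all genes. They were Hist3h2ba at 1.09 and Hist1h2an at 0.88 (adjusted p = 0.00911 and 0.0242). With the block 10 of the 37 were higher, near the share of 3563 of 12161 genes. Hist1h2an was not called with the length trend removed. Of these called genes, Hist3h2ba alone kept its call without each single library, and P4ha1, Tyms, Pcna, Cenpe, Mki67, Lgr5, Nkd1, Kdm5d and Hist1h2an lost theirs without SIX2- library 2 and without GFP- library 1. The table held no mitochondrially encoded gene.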

How the data were processed

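RNA libraries were made with a stranded mRNA kit from Kapa. RNA was isolated with the RecoverAll or RNeasy Micro kits, per the labels' protocols, which do not say which library had which. TopHat2, Partek and the build mm10 are named without versions or roles, per the submitters' processing notes, and no source used here names an annotation or counting mode.

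The E16.5 table holds 15 libraries, each a column of RPKM as deposited by the authors, read numbers scaled to gene length and depth. The file is titled TPM, but its values behave as RPKM: column sums varied by 8.03% (coefficient of variation) and length-weighted sums by 2.74%. The tests had been designed for TPM, and RPKM takes the same test. Depth was estimated from the value of single reads and is approximate.

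Values were compared as log2(RPKM + 1) with limma 3.58.1 (intensity trend, two-sided) in R 4.3.3, using the 6 negative libraries. The difference of differences and the comparison of SIX2+ with GFP+ cells used a fit of the 12 sorted libraries. In data simulated on 12161 genes, the comparison of SIX2- with GFP- recovered 80 of 100 genes changed by 1 on the log2 scale and 97 of 100 changed by 2, with 13 false calls. The changed genes were drawn from those averaging 5 RPKM or more over the negative libraries, and noise was drawn for each gene separately. Deviations shared across genes were not simulated, so these figures are not the error rate of the real comparison. Lengths came from GENCODE M21.

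Same-numbered SIX2- and GFP- libraries deviated together from their group means (r = 0.460, 0.444 and 0.577 across genes). Unlike numbers gave r from -0.582 to 0.362, the latter for SIX2- library 1 with GFP- library 2. Deviations from a group mean cancel, so some positive r was bound to appear. The labels do not state that a number is shared between the sorts. The numbers were taken to pair the samples on these data alone, and blocked p-values rest on that. Blocked values are given where they change a call or move a count by over 1.5 times.

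Named genes are Wnt4, Pax8, Clu, Hbb-b1, Six2 and Foxd1, and the 12 called genes with the largest difference in each direction among those whose higher group averaged 5 or more and whose libraries did not overlap, without predicted, clone-named and small RNA genes. Each list adds its 4 called members with the largest differences, or 1 member where none was called. Some genes that this rule selects are not reported here. Other members are named as examples after their values were seen. The members and the gene lists were chosen with earlier results of these data known.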

Additional observations from a re-analysis of the deposited data

Results flagged for a closer look

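For 10 named genes the difference between SIX2- and GFP- cells was not the same as the difference between SIX2+ and GFP+ cells, by limma's test of the difference of differences with adjustment over all genes. Wnt4 stood at 1.72 in the negative and -1.04 in the positive fractions, a difference of differences of 2.76. Pax8 stood at 1.79 and -0.48 (2.27) and Clu at 1.80 and -0.40 (2.20). Lhx1os stood at 2.26 in the negative and 0.37 in the positive fractions (1.88), Emx2 at 1.83 and 0.07 (1.75), Pou3f3 at 1.89 and 0.44 (1.45) and Lgr5 at 0.82 and -0.11 (0.92). Hba-a2 stood at -7.92 in the negative and -2.73 in the positive fractions (-5.19), and Hbb-b2 and Hbb-bt, whose values are equal, at -7.40 and -2.16 (-5.24). Adjusted p-values ran from 0.00294 for Pax8 to 0.0483 for Lgr5. With a pseudocount of 0.1 in place of 1, Wnt4, Pax8 and Clu passed and the other genes did not. Pou3f3, Emx2, Lgr5 and the SIX2+ globins averaged below 1 RPKM in the positive fractions, where the offset compresses a fold. Lgr5 passed the minimum of 1 RPKM through SIX2- libraries alone, so that minimum fixed its direction in the negative fractions.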

How the results depend on the processing

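The number of genes called, and its split by direction, moved with the libraries in the fit and with the scaling. Against 2837 calls between SIX2- and GFP- cells (1791 higher, 1046 lower), there were 1348 (770 and 578) with all 15 libraries in the fit, 7732 (4763 and 2969) with library weights, whose estimate did not converge fully, and 5505 (3563 and 1942) with the replicate block. Alternatives added after the data were seen gave 855 (384 and 471) with the length trend removed and 4545 (2764 and 1781) with replicates 1 and 2 only, and with the length trend removed and the block 1825 were lower. Scaling moved the higher calls to 592 (TPM), 935 (median of ratios), 1030 (quantile) and 536 (TPM without globins, with 1766 lower), so that the share of higher calls, 63.1%, became 28.3%, 40.5%, 45.6% and 23.3%. Leaving out 1 library gave 118 to 3133 calls, 41 to 1822 higher and 77 to 1311 lower, the fewest without SIX2- library 2.

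The difference of differences passed for 52 genes as higher and 50 as lower. The higher count was 81 with a pseudocount of 5, 17 with a minimum of 5, 84 without a minimum, 18 with TPM, 18 without globins, 11 with 15 libraries, 834 with library weights, 216 with the replicate block and 200 with the block and the length trend removed. The lower count was 33 with a pseudocount of 0.1, 93 with 5, 19 with a minimum of 5, 18 with TPM, 77 with quantile normalisation, 23 without globins, 6 with 15 libraries, 604 with library weights, 154 with the block and 215 with the block and the length trend removed. Leaving out 1 library gave 10 to 183 higher and 10 to 101 lower.

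Of the named genes, 2 without a call changed sign. Foxd1, at -0.14, stood at 0.08 without SIX2- library 2 and at 0.07 without GFP- library 3, in a range of -0.42 to 0.08 over the fits that left out 1 library. Mc2r, at 0.06, stood at -0.11 with TPM, -0.02 with median of ratios, -0.14 without globins, -0.16 without SIX2- library 1 (range -0.16 to 0.32), and -0.32 with the length trend removed, with or without the block. The causes were not tested. Of 61 named genes called, 61 were called with the block, which otherwise changed only the calls given beside their genes in the report, 54 with TPM and 23 without SIX2- library 2. With 3 libraries a group, precision is limited for low genes.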

Other observations

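Genes outside the lists also differed between the negative fractions by another amount than between the positive ones. The test of the difference of differences and the comparison of SIX2- with GFP- cells both passed, in the same direction, for 36 genes as higher and 31 as lower. The 6 of each direction with the largest difference of differences are given here, among genes in no list with a mean of at least 5 RPKM in the higher negative group, a rule chosen after the values were seen.

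Growth factor and epithelial genes were among those higher in SIX2- cells. Emid1, which encodes a secreted EMI-domain protein, had 54.8, 81.5 and 53.1 RPKM in SIX2- libraries, against 20.6, 23.3 and 18.1 RPKM in GFP- libraries, and its difference of differences was 1.68 (adjusted p = 0.0141). Bmp2, a bone morphogenetic protein, had 5.0, 8.13 and 9.66 RPKM in SIX2- libraries, against 2.29, 3.08 and 2.86 RPKM in GFP- libraries, and its difference of differences was 1.68 (adjusted p = 0.0377). Sox9, a transcription factor of ureteric tips and early nephrons, had 5.45, 4.35 and 6.19 RPKM in SIX2- libraries, against 2.56, 2.52 and 3.87 RPKM in GFP- libraries. In the positive fractions Sox9 was lower, with 2.84 ± 0.783 RPKM in SIX2+ cells and 6.0 ± 1.96 RPKM in GFP+ cells (SD, n = 3 each; difference of differences 1.52, limma adjusted p = 0.0481). Spata13, Smtnl2 and Grb7 were the other genes higher, by 0.94, 1.13 and 1.69 in the negative fractions. Their differences of differences were 1.51, 1.5 and 1.49.

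Genes lower in SIX2- cells included Mylk, the myosin light chain kinase of smooth muscle. It had 22.8, 27.5 and 25.3 RPKM in SIX2- libraries, against 45.3, 44.4 and 39.0 RPKM in GFP- libraries. In the positive fractions Mylk was higher, with 4.0 ± 1.35 RPKM in SIX2+ cells and 1.09 ± 0.0993 RPKM in GFP+ cells (SD, n = 3 each; difference of differences -1.97, limma adjusted p = 0.00460). Sned1, a matrix protein gene, had 1.29, 1.33 and 3.83 RPKM in SIX2- libraries, against 12.3, 9.08 and 9.63 RPKM in GFP- libraries (difference of differences -1.68, adjusted p = 0.0443). The difference of differences was -1.63 for Gfra2, a receptor for neurturin (adjusted p = 0.0217). It was -1.59 for Ltbp4, which binds latent TGF-beta in the matrix (adjusted p = 0.0377). For Vstm2b and 6030408B16Rik it was -1.56 and -1.52. In the same order, these genes stood at -0.73, -0.58, -0.71 and -0.78 in the negative fractions. In the positive fractions they stood at 0.90, 1.01, 0.85 and 0.74, all called higher in SIX2+ cells. With a pseudocount of 0.1, Sned1 (adjusted p = 0.357), Grb7 (0.0738) and Sox9 (0.0587) did not pass, and the other 9 genes did. In the comparison of SIX2- with GFP- cells, Emid1 alone kept its call under every alternative (limma adjusted p of at most 0.0459). Each of the others lost its call under some alternative, with a highest adjusted p between 0.0548 for Mylk and 0.194 for Vstm2b.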
